A study of Mus musculus with 19 samples.

Results

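The genes described are 32 genes of glucose uptake, glycolysis, lactate handling and hypoxia sensing. They were chosen by name, with earlier results of these data known, and are 32 of the 16941 genes in the count tables. All 32 were found and all 32 passed the filter on low counts that left 14113 genes for testing. The cells were microglia, the resident macrophages of the brain, isolated from cortical tissue of adult C57BL/6 mice that were 10 to 11 months old. These mice were wild type (WT) or carried the hAPPJ20 transgene (PDGFAPPSw,Ind, here APP), in which a PDGF promoter drives human amyloid precursor protein with the Swedish and Indiana mutations. All cells were cultured for 4 weeks in medium with 10% fetal bovine serum, sodium pyruvate, HEPES and 5 ng/mL macrophage colony-stimulating factor. For 6 h they were then given plain medium (vehicle) or 100 ng/mL lipopolysaccharide (LPS, the endotoxin of Gram-negative bacteria), and rested for 16 h in fresh medium before RNA was taken. There were 4 libraries of WT cells with vehicle, 5 of WT cells with LPS, 5 of APP cells with vehicle and 5 of APP cells with LPS. The labels do not say whether libraries of a group came from separate mice, so p-values measure only the spread between these libraries.

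Glycolysis splits glucose into pyruvate in the cytosol and yields ATP without oxygen. Lactate dehydrogenase then turns pyruvate into lactate, which leaves the cell through monocarboxylate transporters, or pyruvate enters mitochondria unless pyruvate dehydrogenase kinases block that step. HIF-1, a transcription factor whose alpha subunit is encoded by Hif1a, switches on many of these genes when oxygen is low or when macrophages are activated, and the prolyl hydroxylases encoded by the Egln genes mark that subunit for destruction. Macrophages and microglia exposed to LPS are known for a shift toward glycolysis.

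HIF-1 binds DNA at a core written ACGTG or GCGTG, and these letters were searched on both strands of the 300 bases from 250 before to 50 after each gene's start in RefSeq's mouse promoters (GRCm38.p6). The core CACGTG, read by other factors, contains ACGTG and so overlaps it. Of the 32 genes, 31 matched by symbol, with 44 windows in all. ACGTG or GCGTG stood in 36 of the 44 windows (81.8%), against 59.5% of the windows of the genes tested and 43.8% of all 32851 windows. ACGTG alone stood in 24 windows (54.5%), against 24.5% of the windows of genes tested and 19.6% of all windows. GCGTG alone stood in 54.5%, against 48.1% and 32.4%, and CACGTG in 13.6%, against 9.42% and 7.15%. A match describes letters and is no evidence of binding here. The 250 bases before the start are shown for 5 of the genes that the results below turn on, with ACGTG or GCGTG on either strand in capitals. They are the window with the most matches where a gene has several. The intervals are chr11:78322823-78323072 (plus strand) for Aldoc, chr10:78009808-78010057 (minus strand) for Pfkl, chr12:73907617-73907866 (plus) for Hif1a, chr3:104638414-104638663 (plus) for Slc16a1 and chr7:46845554-46845803 (plus) for Ldha.
Aldoc: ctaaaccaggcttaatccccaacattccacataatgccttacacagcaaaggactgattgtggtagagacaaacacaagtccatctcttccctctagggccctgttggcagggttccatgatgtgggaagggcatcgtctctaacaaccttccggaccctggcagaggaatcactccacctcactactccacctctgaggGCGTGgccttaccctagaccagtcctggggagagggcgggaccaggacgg
Pfkl: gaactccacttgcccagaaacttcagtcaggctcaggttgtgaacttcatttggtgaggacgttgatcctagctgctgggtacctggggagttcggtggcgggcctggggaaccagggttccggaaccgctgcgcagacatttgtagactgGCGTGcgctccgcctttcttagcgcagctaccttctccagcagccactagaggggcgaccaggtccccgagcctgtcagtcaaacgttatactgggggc
Hif1a: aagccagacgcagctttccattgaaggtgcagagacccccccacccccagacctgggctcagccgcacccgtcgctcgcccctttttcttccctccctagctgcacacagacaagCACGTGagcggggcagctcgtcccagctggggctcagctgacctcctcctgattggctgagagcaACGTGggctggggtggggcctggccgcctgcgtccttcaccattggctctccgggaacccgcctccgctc
Slc16a1: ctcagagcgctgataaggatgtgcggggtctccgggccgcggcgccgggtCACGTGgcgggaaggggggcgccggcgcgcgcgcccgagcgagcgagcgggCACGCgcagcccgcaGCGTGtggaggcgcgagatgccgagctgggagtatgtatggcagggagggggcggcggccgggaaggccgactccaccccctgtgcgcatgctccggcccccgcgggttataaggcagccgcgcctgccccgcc
Ldha: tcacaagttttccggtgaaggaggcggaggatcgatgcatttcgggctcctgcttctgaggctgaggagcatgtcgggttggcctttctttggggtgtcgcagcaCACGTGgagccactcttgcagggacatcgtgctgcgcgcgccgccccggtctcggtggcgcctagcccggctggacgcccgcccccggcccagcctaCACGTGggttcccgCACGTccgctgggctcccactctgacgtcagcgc
The Ldha and Slc16a1 sequences hold 3 separate stretches in capitals each and the Hif1a sequence 2. A CACGTG stretch is a match on each strand and is counted here as 1. Aldoc and Pfkl hold 1 each before the start.

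Library totals ran from 13065257 to 31248988 counts with a median of 21918747. By these unadjusted totals, the limit a count of 0 allows (3 counts) was 0.0960 to 0.230 CPM. All other CPM, counts scaled to a common library size, use totals adjusted by TMM, a normalization for composition. Counting error is only part of the spread between libraries. Microglia and macrophage markers were present in all libraries, led by Tyrobp (median 1106 CPM) and C1qa (639 CPM). The markers of resting microglia were near the floor: P2ry12 was at 0 in 6 of 19 libraries and Tmem119 in 3. The 4 libraries numbered 57 to 60, 1 in each group, stood apart, with a summed level of 15 macrophage markers of 889 to 1954 CPM against 3130 to 7059 CPM in the other 15. Pericyte, smooth muscle and fibroblast markers summed to 3632 to 7393 CPM in them, against 1506 to 5633 CPM elsewhere. All 7 genes of an LPS response list had values above 0 after LPS in both genotypes, with a median log2 change of 1.91 in WT and 2.24 in APP. None of the 7 passed in the comparison of groups, while 4 passed in WT and 7 in APP when libraries of consecutive number were taken as pairs.

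Those pairs join a vehicle and an LPS library of 1 genotype, and the numbers come from the labels' library names. There are 4 pairs in WT (9/10, 21/22, 41/42, 57/58) and 5 in APP (3/4, 7/8, 11/12, 51/52, 59/60). One WT library with LPS, replicate 1, has no partner. Below, the group comparison is edgeR's quasi-likelihood test over all 19 libraries without pairs, and the paired comparison adds the pair to the same model. With pairs, the library without a partner does not inform the LPS change in WT, which rests on the 4 pairs. Every adjusted p is by Benjamini-Hochberg over all 14113 genes, and a gene is called at an adjusted p under 0.05.

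None of the 32 genes was called in any of the comparisons of the design: LPS against vehicle in WT, the same in APP, APP against WT with vehicle, APP against WT after LPS, and the interaction of genotype and LPS. The group comparison by edgeR called 0% of all 14113 genes in each of the 5, and at an unadjusted p under 0.05 it held 516 (3.66%), 679 (4.81%), 402 (2.85%), 482 (3.42%) and 385 (2.73%) genes in that order, of which 1, 0, 0, 1 and 1 were members. With pairs, 0.149% of all genes were called in WT (21 genes) and 0.588% in APP (83 genes), again with no member among them. At an unadjusted p under 0.05 the paired comparison held 5 of the 32 genes in WT (4.96% of all genes) and 4 in APP (7.69%). DESeq2 called 89 genes in WT and 76 in APP and limma voom with pairs 3 and 9, also without a member. In WT, 21 of the 32 genes had a log2 change above 0 and their median was 0.24, while 49.3% of all genes were above 0 with a median of -0.01. In APP, 17 of 32 were above 0 with a median of 0.01, beside 46.9% and -0.03 for all genes. For APP against WT with vehicle the members' median was 0.07 (18 above 0), after LPS -0.12 (10 above 0) and for the interaction -0.19 (9 above 0), where all genes had medians of 0.01, -0.00 and -0.03. These comparisons share libraries, so their values are given side by side and were not compared with each other.

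**Figure D1:**
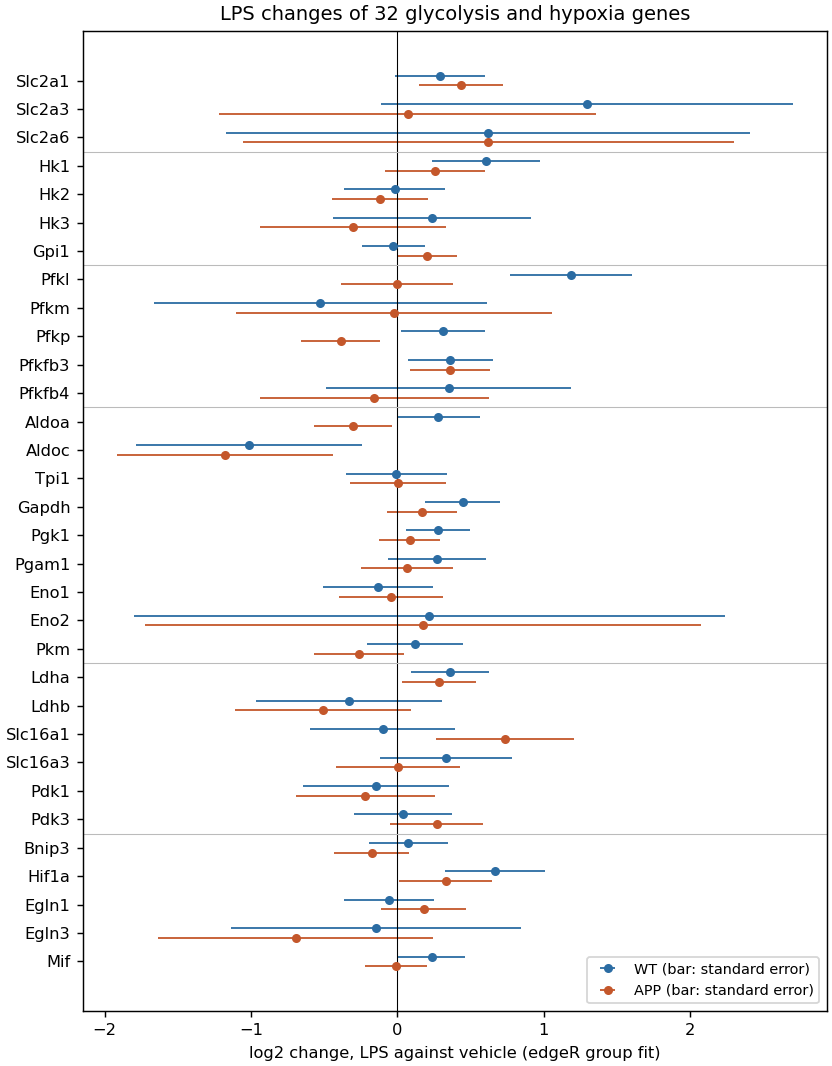
Log2 change with LPS (x axis) of each of the 32 genes (y axis, grouped by role from glucose uptake at the top to hypoxia sensing at the bottom) in WT and APP cells, from the edgeR group comparison; points are estimates and bars 1 standard error. Pfkl in WT lies at 1.19 and Aldoc lies at -1.01 in WT and -1.18 in APP; no gene was called.

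Among glucose transporters, Slc2a1 (GLUT1, the main transporter of basal uptake) was the one well above the floor. Its levels in APP cells were 47.6, 58.3, 65.1, 58.8 and 70.4 CPM with vehicle and 124, 92.6, 30.4, 66.6 and 92.2 CPM with LPS (replicates 1 to 5). In APP, 4 LPS libraries lay above their partner and replicate 3 far below it, so the groups overlapped. The log2 change was 0.43 ± 0.29 (SE, edgeR adjusted p = 1) in APP and 0.29 ± 0.31 (adjusted p = 1) in WT. Slc2a3 and Slc2a6, a pair of further transporters, reached at most 7.91 CPM in any library. Slc2a3 was listed at 0 in 1 library and Slc2a6 in 5, and the SEs of their LPS changes were 1.29 to 1.79 on the log2 scale. Libraries of a pair could be far apart: Slc2a3 had 88 counts in library 3 and 1 in library 4, and Slc2a6 had 0 in library 7 and 96 in library 8.

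The hexokinases trap glucose in the cell as glucose 6-phosphate. Hk1, the housekeeping form, was at 26.4, 32.9, 38.4 and 29.6 CPM in WT cells with vehicle and at 91.3, 41.0, 28.1, 45.1 and 36.3 CPM with LPS. The value of 91.3 CPM came from the unpaired library, and without that library the log2 change of 0.60 ± 0.37 (edgeR adjusted p = 1) was 0.24 ± 0.34. With vehicle, APP cells held 57.5, 46.0, 55.6, 24.6 and 23.4 CPM of Hk1, which straddled the WT range (log2 difference 0.38 ± 0.37, edgeR adjusted p = 1). Hk2, the inducible form, had WT means of 246 ± 110.5 CPM (SD, n = 4) with vehicle and 243 ± 71.1 CPM (n = 5) with LPS. In APP it was lower with LPS in 5 of 5 pairs, but by small amounts, from -0.01 to -0.31 on the log2 scale. Hk3, a form of blood cells, ran from 1.11 to 36.8 CPM over all libraries with no separation of groups.

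Gpi1, glucose-6-phosphate isomerase, varied least of the hexose genes, with a coefficient of variation of 18.4% over 19 libraries. WT cells with vehicle held 117, 129, 105 and 119 CPM and APP cells with vehicle 107, 136, 106, 70.3 and 81.8 CPM. The 2 lowest of the 9 values were APP libraries, and the others overlapped (log2 difference -0.23 ± 0.22, edgeR adjusted p = 1). It had the smallest p of the 32 genes in that comparison.

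Phosphofructokinase is the committed step of glycolysis, and its liver-type subunit Pfkl had the clearest separation of any member in WT cells. Pfkl was at 5.14, 14.6, 11.0 and 13.8 CPM with vehicle and at 23.4, 22.5, 37.2, 28.0 and 15.4 CPM with LPS. All 5 LPS values lay above all 4 vehicle values, and it was the only member whose groups did not overlap in any of the 4 pairwise comparisons. Over all genes, 0.723% were higher without overlap in WT, and 1.3% (LPS in WT), 0.588% (LPS in APP), 0.843% (genotype with vehicle) and 0.496% (genotype after LPS) did not overlap in either direction. The gap was narrow, since the highest vehicle library and the lowest LPS library, number 58, differed by under 1 CPM. The log2 change was 1.19 ± 0.42 (edgeR unadjusted p = 0.00932, adjusted p = 1), and with pairs 1.25 ± 0.50 (adjusted p = 0.823), higher in 4 of 4 pairs.

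In APP cells Pfkl did not show this separation. Its levels were 8.17, 18.2, 12.5, 19.4 and 13.8 CPM with vehicle and 9.03, 14.1, 15.1, 16.8 and 16.9 CPM with LPS, and 3 of 5 pairs were higher. Here the log2 change was 0.00 ± 0.38 (edgeR adjusted p = 1). The difference between genotypes in the LPS change was -1.19 ± 0.56 (unadjusted p = 0.0458, adjusted p = 1), so it did not pass. After LPS, APP cells were lower than WT cells by -0.82 ± 0.38 on the log2 scale (unadjusted p = 0.0455, adjusted p = 1), with 3 of 5 APP values below all 5 WT values.

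Pfkp, the platelet-type subunit, ran the other way in APP cells. It was at 41.7, 31.8, 21.5, 27.3 and 39.2 CPM with vehicle and at 20.9, 22.6, 26.5, 36.6 and 16.9 CPM with LPS. Pairs were split, with 2 of 5 higher, and the groups overlapped (log2 change -0.39 ± 0.27, edgeR adjusted p = 1). WT cells after LPS held 46.8, 34.7, 31.9, 30.4 and 38.2 CPM, above 4 of the 5 APP values (log2 difference -0.56 ± 0.27, unadjusted p = 0.0501, adjusted p = 1). The interaction was -0.70 ± 0.39 (edgeR adjusted p = 1). Pfkm, the muscle-type subunit, reached at most 11.2 CPM and was listed at 0 in 1 library.

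Pfkfb3 makes fructose 2,6-bisphosphate, the strongest activator of phosphofructokinase. Its WT levels were 74.3, 58.5, 105 and 66.8 CPM with vehicle and 88.6, 76.8, 117, 131 and 76.0 CPM with LPS. APP levels were 48.2, 63.0, 112, 121 and 59.3 CPM with vehicle and 98.0, 78.3, 105, 151 and 85.4 CPM with LPS. The groups overlapped in both genotypes, yet within pairs it was higher in 4 of 4 in WT and 4 of 5 in APP. By group the log2 changes were 0.36 ± 0.29 in WT and 0.36 ± 0.27 in APP (edgeR adjusted p = 1 in both). Pfkfb4, its relative, ranged from 0.184 to 23.7 CPM without a common direction, higher in 3 of 9 pairs.

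The 9 genes from aldolase to pyruvate kinase carry glycolysis from the split of fructose 1,6-bisphosphate to pyruvate. Aldoc, aldolase C, is best known as the aldolase of brain and of astrocytes, and it was the member with the same direction in every pair. In WT it was at 20.4, 39.3, 21.6 and 11.2 CPM with vehicle and at 21.1, 9.52, 13.8, 8.73 and 4.17 CPM with LPS. In APP it was at 65.6, 43.6, 34.2, 10.8 and 5.54 CPM with vehicle and at 48.5, 11.4, 5.59, 2.74 and 2.16 CPM with LPS. Levels ranged widely within each group, and the groups overlapped in both genotypes. Within pairs, though, LPS was the lower library in 4 of 4 in WT and 5 of 5 in APP, from -0.43 in pair 3/4 to -2.59 in pair 11/12 in log2 CPM (2 counts added, scaled to the library).

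**Figure D2:**
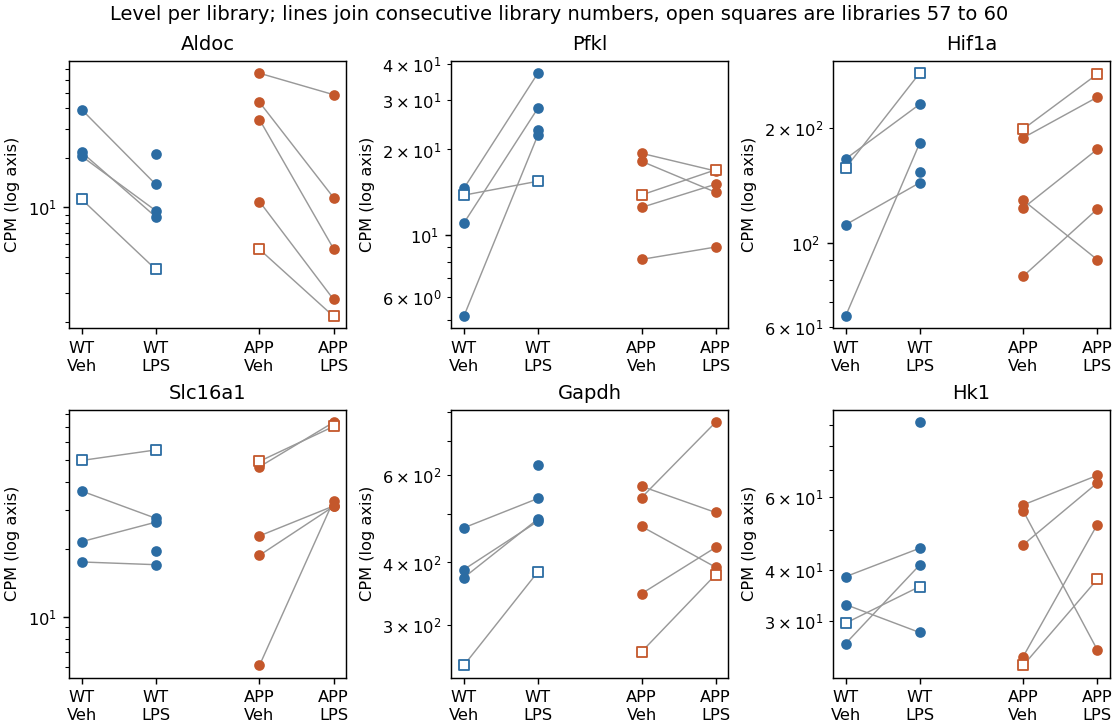
CPM per library (log y axis) of 6 genes by genotype and treatment (x axis); lines join libraries of consecutive number, and open squares are libraries 57 to 60. Every Aldoc line falls, from 65.6 to 48.5 CPM in the highest pair and from 5.54 to 2.16 CPM in the lowest, and Pfkl is separated by treatment in WT alone.

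Aldoc was the only one of the 32 genes lower in every one of the 9 pairs, a rule that 1.06% of all genes met, and no member was higher in all 9 (0.935% of all genes). In the group comparison its log2 change was -1.01 ± 0.77 in WT and -1.18 ± 0.74 in APP (edgeR adjusted p = 1 in both). The APP value was -2.54 ± 0.69 (adjusted p = 0.975) without LPS replicate 1 and -0.73 ± 0.77 (adjusted p = 1) without vehicle replicate 1. The WT value was -0.64 ± 0.83 (adjusted p = 1) without vehicle replicate 2. With pairs it was -1.33 ± 0.44 (adjusted p = 0.575) in WT and -1.66 ± 0.41 (adjusted p = 0.0773) in APP. A comparison added after this pattern was seen, the LPS change averaged over both genotypes, gave -1.50 ± 0.30 with pairs (adjusted p = 0.0119), where 1.5% of all genes were called, and 0.68% as lower. The same average without pairs gave -1.09 ± 0.53 (adjusted p = 0.819, 0.0213% of all genes called). With the pair as a random effect, limma voom gave -1.31 ± 0.52 (adjusted p = 0.307), which did not pass, although that fit called 68 genes. Leaving out each pair in turn kept the paired value between -1.38 and -1.65, and the call held in 8 of 9 cases. Without pair 21/22 it was -1.47 ± 0.35 with an adjusted p of 0.0533. Since the average was chosen on these libraries, it is not independent evidence of the direction.

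Markers of other cells were read beside Aldoc. The 8 astrocyte markers summed to 52.3 to 103 CPM in WT with vehicle and 53.2 to 105 CPM with LPS, and to 66.3 to 293 and 68.2 to 316 CPM in APP. The sum was higher with LPS in 4 of 4 pairs in WT and in 2 of 5 in APP, so that in 3 of 5 APP pairs it was lower together with Aldoc, and 0 of the 8 were called. It rested mostly on Gja1 (median 36.1 CPM) and Sox9 (18.7 CPM), while Gfap and Aqp4 were each at 0 in 11 of 19 libraries. Pair 3/4, which had the most Aldoc, also had the highest astrocyte sums. The same pair had the highest sums of oligodendrocyte lineage markers (229 and 218 CPM) and of neuron markers (290 and 212 CPM). With LPS the oligodendrocyte sum was lower in 7 of 9 pairs, and the neuron and endothelium sums in 6 of 9 each. The sum of pericyte, smooth muscle and fibroblast markers was lower in 4 of 9. The sum of the 15 macrophage markers had the same direction as Aldoc, lower with LPS in 9 of 9 pairs. In WT its ranges were 1954 to 7059 CPM (vehicle) and 1486 to 6236 CPM (LPS), and in APP 1458 to 6267 and 889 to 5772 CPM. In pair 11/12, where Aldoc differed most, the sum was 6267 CPM with vehicle and 5772 CPM with LPS. In pair 3/4, where Aldoc differed least, the sum was 4133 and 3130 CPM. Sizes of the differences were not compared over the 9 pairs. With pairs, 3 of the 15 were called lower in APP, and 7 of 15 in the average. The part of these markers in the Aldoc values was not tested, and in bulk RNA fewer cells of a type and less RNA per cell cannot be told apart. Without libraries 57 to 60 the paired average of Aldoc was -1.53 ± 0.35 (adjusted p = 0.0184).

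**Figure D3:**
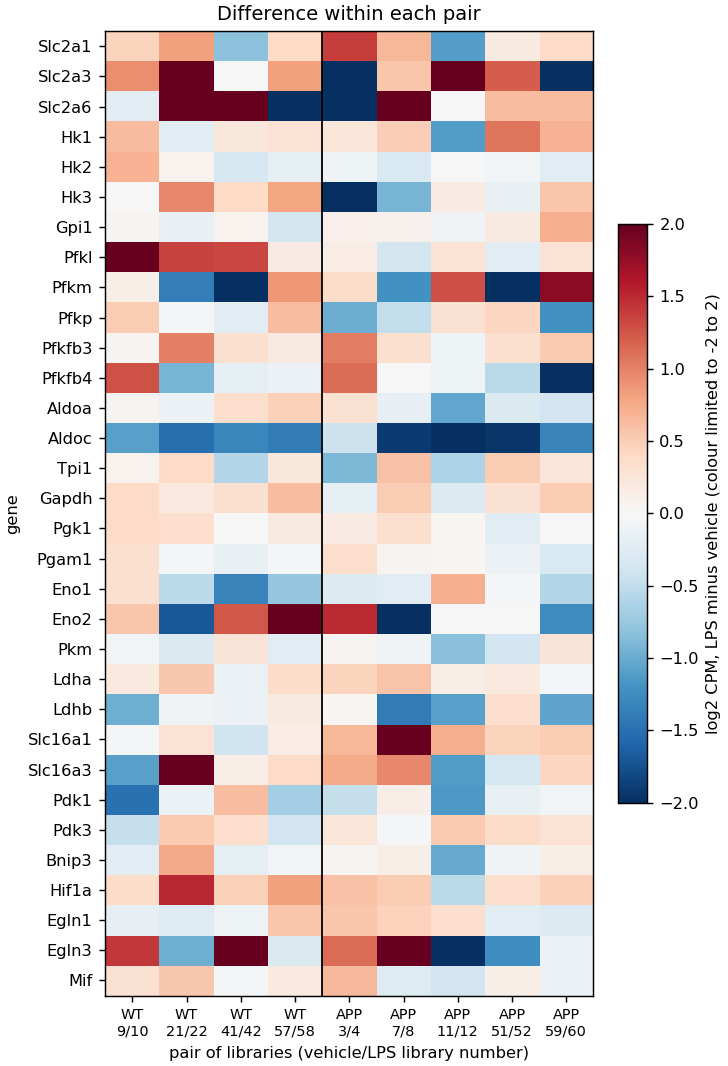
Difference in log2 CPM, LPS minus vehicle (colour, limited to -2 to 2), of the 32 genes (y axis) in each of the 9 pairs (x axis, WT left of the line and APP right). Aldoc is the only row that is blue throughout, Pfkl is red in all 4 WT pairs and Slc16a1 in all 5 APP pairs.

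Aldoa, the aldolase of most tissues, was higher with LPS in 3 of 4 WT pairs and lower in 4 of 5 APP pairs. Its mean was 167 ± 41.4 CPM (SD, n = 4) with vehicle and 203 ± 38.3 CPM (n = 5) with LPS in WT, and 185 ± 64.3 and 149 ± 56.3 CPM (n = 5 each) in APP. The log2 changes were 0.28 ± 0.28 in WT and -0.30 ± 0.27 in APP (edgeR adjusted p = 1 for both), and the interaction was -0.58 ± 0.39 (adjusted p = 1). Tpi1, triosephosphate isomerase, had changes of -0.01 ± 0.35 and 0.01 ± 0.33.

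Gapdh, the dehydrogenase often used as a reference transcript, was at 373, 469, 387 and 249 CPM in WT with vehicle and at 626, 489, 537, 484 and 383 CPM with LPS. All 4 WT pairs were higher with LPS, by 0.20 to 0.62 on the log2 scale, while the groups overlapped through library 58. By group the log2 change was 0.45 ± 0.26 (edgeR adjusted p = 1) and with pairs 0.38 ± 0.15 (adjusted p = 0.766). In APP, 3 of 5 pairs were higher and the change was 0.17 ± 0.24 (edgeR adjusted p = 1). Gapdh has 143 near-identical copies in the annotation (at least 95% identity over at least 100 of the last 500 bases), 1 of them, in Peli2, with a row of its own, and how their reads were assigned is not given in the sources used here. With Gapdh, 13 members have such a copy: Aldoa, Bnip3, Eno1, Gpi1, Hif1a, Ldha, Ldhb, Mif, Pgam1, Pgk1, Pkm and Tpi1 have 1 to 11 each, so their levels carry this uncertainty.

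Pgk1, phosphoglycerate kinase and the first ATP-yielding step, was also higher in 4 of 4 WT pairs, though in pair 41/42 the 2 libraries differed only by 802.0 against 804.6 CPM. The WT change was 0.28 ± 0.22 and the APP change 0.08 ± 0.21 (edgeR adjusted p = 1 for both). Pgam1, phosphoglycerate mutase, had 0.27 ± 0.33 and 0.07 ± 0.31. Pkm, pyruvate kinase, had 0.12 ± 0.33 and -0.26 ± 0.31.

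Pgk1 and Pgam1 were the 2 members whose levels in libraries 57 to 60 lay below every other library, at 514 to 580 against 593 to 1098 CPM for Pgk1 and at 265 to 397 against 403 to 937 CPM for Pgam1. Over all genes, 2.18% lay below in this way. The 9 lower glycolysis genes summed to 1591 to 1793 CPM in those 4 libraries and to 1941 to 3504 CPM in the other 15. All 32 genes summed to 3348 to 3831 against 3965 to 5874 CPM. Among the roles, lower glycolysis alone lay wholly below, and the sums of every other role overlapped. Neighbouring lists were mixed. Pentose phosphate pathway genes overlapped, at 657.3 to 734.5 against 609.6 to 872.1 CPM. The sums of other HIF pathway and hypoxia genes and of regulators of glycolysis overlapped too. Other glycolysis genes lay below, at 358 to 420 against 426 to 756 CPM. Genes of pyruvate entry and the TCA cycle also did, at 1766 to 1805 against 1822 to 2621 CPM. These 4 libraries are also the ones with the least macrophage marker signal; the part of that in these levels was not tested. Each group holds 1 of them, and leaving them out brought no member past the threshold in the comparisons of the design.

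**Figure D4:**
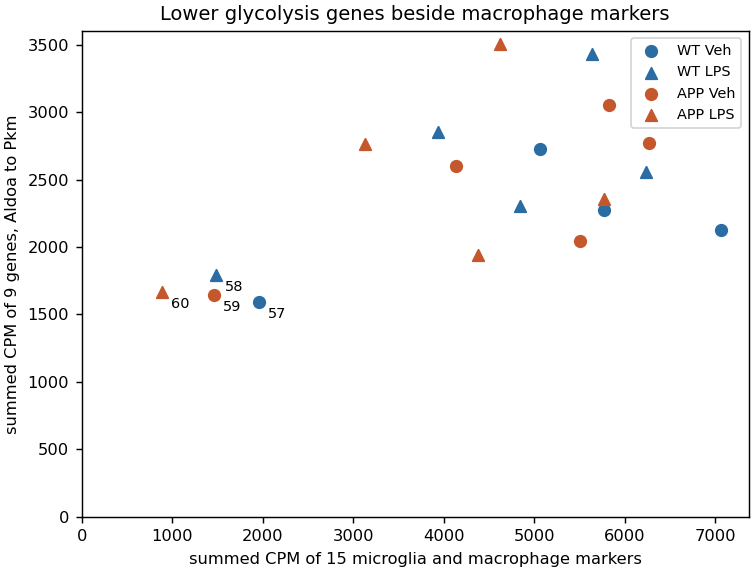
Summed CPM of the 9 lower glycolysis genes (y axis) against summed CPM of 15 microglia and macrophage markers (x axis) in the 19 libraries, by group. Libraries 57 to 60 sit at the lower left, at 889 to 1954 CPM of markers and 1591 to 1793 CPM of glycolysis genes, apart from the other 15.

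Eno1, enolase, shares its sequence with a near-identical copy, Eno1b, which has its own row: the last 500 bases of the transcripts are 99.4% identical. The 2 rows had means of 102.7 and 103.4 CPM, and the share of their joint counts given to Eno1 ran from 21.5% to 71.4% between libraries. Eno1 was at 93.8, 178, 77.9 and 79.8 CPM in WT with vehicle and at 170.2, 117, 125, 30.96 and 46.4 CPM with LPS. With pairs, the WT change was -0.58 ± 0.24 for Eno1 and 0.48 ± 0.29 for Eno1b (edgeR adjusted p = 0.856 and 1). The counts of both rows summed gave 0.01 ± 0.16 (adjusted p = 1). The values of Eno1 alone are therefore uncertain. Eno2, the neuronal enolase, was at 0 in 5 libraries and at most at 5.09 CPM.

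**Figure D5:**
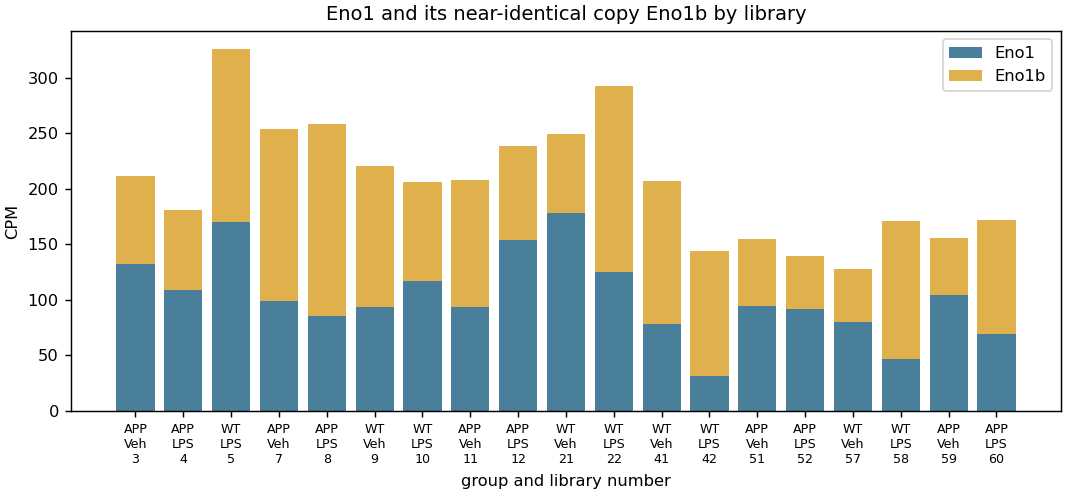
CPM of Eno1 and Eno1b stacked (y axis) in each library, in order of library number (x axis). The Eno1 part of the bar varies from 21.5% (library 42) to 71.4% (library 21) of the joint counts.

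At the fate of pyruvate, Slc16a1 (MCT1, a lactate and pyruvate transporter) was the only one of the 32 genes (3.12% of them) higher with LPS in every APP pair. Its levels in APP were 46.7, 6.09, 18.8, 23.0 and 49.4 CPM with vehicle and 73.7, 33.0, 31.1, 31.2 and 70.7 CPM with LPS. The difference ran from 0.44 to 2.42 on the log2 scale, largest in pair 7/8 where the vehicle library was the lowest of all 19, and 3.46% of all genes were higher in all 5 APP pairs. By group the APP log2 change was 0.73 ± 0.47 (edgeR adjusted p = 1) and with pairs 0.93 ± 0.30 (adjusted p = 0.280). In WT the levels were 17.6, 21.7, 36.4 and 49.9 CPM with vehicle and 19.6, 17.1, 26.5, 27.5 and 55.5 CPM with LPS. Pairs were split in WT, 2 of 4 higher, with a change of -0.10 ± 0.49 (edgeR adjusted p = 1). The interaction was 0.84 ± 0.68 (edgeR adjusted p = 1) and 0.93 ± 0.45 with pairs (adjusted p = 1).

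Ldha, the lactate dehydrogenase subunit that favours lactate formation, was at 587, 809, 532 and 376 CPM in WT with vehicle and at 878, 672, 1179, 485 and 487 CPM with LPS. In APP it was at 635, 579, 648, 504 and 495 CPM and at 865, 858, 701, 578 and 484 CPM. It was the higher library with LPS in 7 of 9 pairs, and the groups overlapped in both genotypes. The log2 change was 0.36 ± 0.27 in WT and 0.28 ± 0.25 in APP (edgeR adjusted p = 1 for both). The WT value was 0.13 ± 0.26 without LPS replicate 3 and 0.56 ± 0.28 without vehicle replicate 2. Ldhb, the partner subunit, had -0.33 ± 0.63 and -0.51 ± 0.60, lower in 6 of 9 pairs. Slc16a3 (MCT4, the lactate exporter of glycolytic cells) had 0.33 ± 0.45 and 0.00 ± 0.42. The kinases Pdk1 and Pdk3, which hold pyruvate back from mitochondria, had -0.15 ± 0.50 and 0.04 ± 0.33 in WT and -0.22 ± 0.47 and 0.27 ± 0.32 in APP.

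Among the hypoxia genes, Hif1a was higher with LPS in 8 of 9 pairs, a count that Pfkfb3 and Pgk1 also reached. The share of all genes with that count was not computed. In WT, Hif1a was at 111, 64.1, 166 and 157 CPM with vehicle and at 153, 144, 182, 231 and 279 CPM with LPS. In APP it was at 81.7, 123, 129, 189 and 199 CPM with vehicle and at 123, 176, 90.3, 241 and 277 CPM with LPS. The groups overlapped in both genotypes, and the pairs that were higher were 4 of 4 in WT and 4 of 5 in APP, pair 11/12 being the exception at -0.52 on the log2 scale. The log2 change was 0.67 ± 0.34 in WT and 0.33 ± 0.32 in APP (edgeR adjusted p = 1 for both). The APP value was 0.12 ± 0.32 without LPS replicate 5 and 0.50 ± 0.31 without LPS replicate 3. The 4 vehicle libraries with the most Hif1a (41, 51, 57 and 59, at 157 to 199 CPM) were also those with the highest summed LPS response genes, at 2200 to 3095 CPM against 790 to 1282 CPM in the other 5. The part of that in the Hif1a values was not tested. With pairs it was 0.79 ± 0.20 (adjusted p = 0.211) in WT and 0.29 ± 0.18 (adjusted p = 0.812) in APP. Averaged over genotypes with pairs it was 0.54 ± 0.13 (adjusted p = 0.0522), which missed the threshold with all pairs and passed without pair 9/10, 11/12 or 41/42. Hif1a, unlike Pgk1 and Pgam1, was not low in libraries 57 to 60, at 157 to 279 CPM against 64.1 to 241 CPM elsewhere.

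The other hypoxia genes had values on both sides of 0. Egln1, the main oxygen-sensing hydroxylase, had a log2 change of -0.06 ± 0.31 in WT and 0.18 ± 0.29 in APP. Egln3, a hydroxylase that is itself a HIF target, ranged from 0 to 40.6 CPM, with -0.15 ± 0.99 and -0.69 ± 0.94. Bnip3, a HIF target that directs mitochondria to autophagy, had 0.07 ± 0.27 and -0.18 ± 0.25. Mif, a cytokine induced by hypoxia, had 0.23 ± 0.23 and -0.01 ± 0.21 (edgeR adjusted p = 1 for all 8 values).

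By role, the summed level was higher with LPS in 8 of 9 pairs for the phosphofructokinase step and in 8 of 9 for hypoxia sensing. It was higher in 7 of 9 for glucose uptake, for lower glycolysis and for lactate and pyruvate fate, and in 4 of 9 for the hexose step. These sums rest on the most abundant genes of each role and carry no test. In WT, 5 members were higher in all 4 pairs (Pfkl, Pfkfb3, Gapdh, Pgk1 and Hif1a), where 7.43% of all genes were, and Aldoc alone was lower in all 4 (6.59% of all genes). In APP, Slc16a1 alone was higher in all 5, and Hk2 and Aldoc were lower in all 5, where 4.99% of all genes were. As shares of the 32 genes these counts are 15.6% (higher) and 3.12% (lower) in WT and 3.12% and 6.25% in APP.

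Neighbouring pathways were read from lists of other genes. In WT and in APP, by group or with pairs, none of their genes was called with LPS. With pairs, 0.149% of all genes were called in WT and 0.588% in APP. The paired average over genotypes, added after values were seen, called 2 of the listed genes, Lox and Idh1, where it called 1.5% of all genes. Of 25 tested glycolysis genes outside the 32, 12 had values above 0 in WT and 10 in APP. The smallest p values belonged to Tigar, a phosphatase that lowers fructose 2,6-bisphosphate (-0.85 ± 0.46 in WT), and Eno1b in WT, and in APP to Bsg, the chaperone of monocarboxylate transporters (-0.46 ± 0.24), and Slc2a2, a transporter near the floor (edgeR adjusted p = 1 for each). Of 49 other HIF pathway and hypoxia genes, 23 were above 0 in WT and 27 in APP. Trf, transferrin, was at negative values in both (-0.63 ± 0.28 and -0.83 ± 0.26, edgeR adjusted p = 1 and 0.956), Fam162a was at 0.41 ± 0.20 in WT, and Mxi1, a Myc antagonist induced by hypoxia, was at -1.14 ± 0.39 in APP (adjusted p = 1 and 0.956). With pairs and averaged over genotypes, Lox, a collagen cross-linking enzyme and HIF target, was called higher (0.41 ± 0.09, edgeR adjusted p = 0.0178).

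Of 10 pentose phosphate pathway genes, 5 were above 0 in each genotype. Prps2, a phosphoribosyl pyrophosphate synthetase, was at -0.57 ± 0.30 in WT and -0.76 ± 0.29 in APP (edgeR adjusted p = 1 and 0.956). Pgls, the lactonase of the pathway, was at -0.93 ± 0.68 in WT and Prps1 at -0.80 ± 0.60 in APP (adjusted p = 1 for both). Of 28 genes of pyruvate entry and the TCA cycle, 9 were above 0 in WT and 11 in APP, and their summed level was lower with LPS in 7 of 9 pairs. Idh1, cytosolic isocitrate dehydrogenase, was at 126 ± 36.1 CPM (SD, n = 4) with vehicle and 76.7 ± 18.6 CPM (n = 5) with LPS in WT, and at 108 ± 38.3 and 67.0 ± 22.6 CPM (n = 5 each) in APP. Its log2 change was -0.72 ± 0.31 and -0.69 ± 0.29 (edgeR adjusted p = 1 and 0.958), and the paired average called it lower (-0.73 ± 0.15, adjusted p = 0.0173). Mdh1, malate dehydrogenase, was at -0.41 ± 0.26 in WT and -0.68 ± 0.25 in APP, and fumarase (Fh1) at 0.53 ± 0.32 in WT (edgeR adjusted p = 1, 0.956 and 1). Of 17 regulators of glycolysis, 9 were above 0 in WT and 8 in APP. The smallest p values were those of Ppargc1a, which was near the floor, and Mlx (0.53 ± 0.34) in WT, and of Arrdc4 (0.71 ± 0.48) and Trp53 (0.48 ± 0.36) in APP, with an edgeR adjusted p of 1 for each.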

How the data were processed

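Libraries were made with a 3′ kit (QuantSeq FWD, with molecular identifiers and ERCC spike-ins), per the labels' protocols. The deposited tables hold estimated counts (expected counts) per gene, 16941 genes, already whole numbers, with no ERCC rows; FastQC, Trimmomatic, kallisto and DESeq2 are named in the submitters' processing notes, while for versions, build, annotation and the use of identifiers the sources used here give nothing. Rounding changed 0 values.

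The members and all lists were chosen with earlier results of these data known. Counts were tested with edgeR 4.0.16 (R 4.3.3) after TMM and filterByExpr, with 1 coefficient per group over all 19 libraries. Alternatives were DESeq2 1.42.0, limma 3.58.1 voom, no filter, RLE, blocks and left-out libraries; the scripts were tested on simulated data. Named genes were the 4 with the smallest p in each LPS comparison, 2 in each other comparison, any called or not overlapping, and 2 per list of other pathway genes and LPS comparison. Aldoc's averaged test, Eno1, Ldha, Pfkfb3, Pgk1, Pgam1, Hk2, Lox and the libraries 57 to 60 were singled out after values were seen. Partners by library number deviated from their group means together (r = 0.130 to 0.352 in the 5 APP pairs, where replicate numbers give the same pairs, and 0.0959 to 0.292 in the 4 WT pairs, 41/42 being lowest). The highest values were those of pairs 59/60 (0.352) and 57/58 (0.292). Libraries 58 and 60, which are not partners and differ in genotype, had r = 0.313. In the other pairs r was 0.0959 to 0.166. The labels do not say what the numbers mean. The label of WT LPS replicate 1 gives library 5 and its table says 6. Near-identical copies were found with BLAST 2.17.0 in GENCODE M21.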

Additional observations from a re-analysis of the deposited data

Results flagged for a closer look

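In each group the highest and lowest library of every member was set against the others with Dixon's ratio. Of 128 sets of values, 12 had such a library, and chance gives about 1 in 20. In WT with vehicle, Slc2a3 was at 0 CPM in replicate 2, against 2.90 CPM in the next library. Pfkm was at 1.56 CPM in replicate 4, with the next at 9.34 CPM. Eno1 was at 178 CPM in replicate 2, with the next at 93.8 CPM, and at 132 CPM in replicate 1 of APP with vehicle, with the next at 105 CPM.

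In WT with LPS, Hk1 reached 91.3 CPM in replicate 1 and Slc16a1 55.5 CPM in replicate 5, with the next libraries at 45.1 and 27.5 CPM. In APP with LPS, replicate 1 had the highest Aldoc at 48.5 CPM (next 11.4 CPM) and Eno2 at 5.09 CPM (next 0.967 CPM). Replicate 2 of that group had the highest Pgk1 at 1098 CPM, Slc16a3 at 29.5 CPM and Egln1 at 68.2 CPM. In APP with vehicle, Egln3 was at 40.6 CPM in replicate 3, with the next at 12.7 CPM. No difference between genotypes in the LPS change passed the test for any member.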

How the results depend on the processing

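In each of the 5 comparisons of the design 0 members were called under every setting run: no filter, RLE, DESeq2, voom, groups fitted alone, libraries 57 to 60 left out, and each library left out in turn (0 to 0). A block on the replicate number and the pairing by library number also called 0 members. The replicate numbers of WT did not pair the libraries (r = -0.0910 to 0.0659). In the average over genotypes, added after seeing the data, the library pair block called 1 member, Aldoc (-1.50), and 1 without libraries 57 to 60 (-1.53). In that average Aldoc was not called by voom with the pair as a random effect (adjusted p = 0.307), the replicate block (0.281) or DESeq2 (0.715). The 24 other log2 changes of named members kept their sign; that of Eno1 in WT (-0.13) was 0.22 without WT vehicle replicate 2, 0.09 without WT LPS replicate 4, 0.04 without WT LPS replicate 5 and 0.18 with Eno1b summed in (-0.43 to 0.22 with each library left out), and the cause was not tested. Over all genes, LPS called 0 in WT and APP by group, 21 and 83 with the library pair block and 89 and 76 by DESeq2. Of 21 log2 changes of named members in the comparisons of the design, 12 moved by over 1.5 times with 1 library left out, and none of the 21 was called. Slc2a3, Slc2a6, Eno2 and Pfkm varied between libraries by more than counting error: Pfkm had 221 counts in library 41 and 0 in library 42.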
